A study of Mus musculus with 8 samples.

Results

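The HSP70 and HSP110 genes of a mouse collecting duct cell line were compared with and without added NaCl. Members were taken by gene symbol from the table of raw counts, with the list Hspa1a, Hspa1b, Hspa4l, Hsph1, Hspa8, Hspa4, Hspa9, Hspa13 and Hspa14 chosen by name. All 9 were found among 15288 genes, and all 9 were abundant enough to be tested. The line, labelled IMCD, comes from the inner medullary collecting duct of the kidney and was grown in DMEM with serum. It was then held for 12 h in DMEM free of FBS, either without added salt (control, 4 libraries, replicates 1 to 4) or with 100 mmol NaCl (4 libraries, replicates 5 to 8). The labels give the salt as an amount with no volume, and do not say whether the libraries of a group came from separate cultures, so p-values measure the spread between these libraries, which may be technical.

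HSP70 proteins are ATP-driven chaperones that clamp onto exposed hydrophobic stretches of unfolded proteins. J-domain proteins deliver clients and trigger ATP hydrolysis, and nucleotide exchange factors, among them the HSP110 relatives of HSP70, reset the cycle. Some family members are made at all times, and others are induced by heat, by misfolded protein through the heat shock factor HSF1, or, in the renal medulla, by high salt through the tonicity factor NFAT5. Hspa1a, Hspa1b, Hspa4l and Hsph1 were grouped as stress-inducible, and Hspa8, Hspa4, Hspa9, Hspa13 and Hspa14 as constitutive. This grouping, on which the ratios below rest, was made with earlier results of these data known.

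Hspa1a and Hspa1b, the genes for inducible HSP70, are near copies, and their upstream sequences are shown because they differ at few positions. Both are single-exon genes on the minus strand of chromosome 17 (GRCm38), Hspa1b at chr17:34956436-34959238 and Hspa1a at chr17:34969190-34972156, with start sites 12918 bases apart. Their coding sequences align over 1923 bases with 8 mismatches (99.6% identity). The 250 bases before the RefSeq start sites (GRCm38.p6), at chr17:34959239-34959488 and chr17:34972157-34972406 on the minus strand, differ at 3 positions. Capitals mark GAANNTTC, the paired core of the heat shock element to which HSF1 binds, at positions -104 to -97 in both.
Hspa1b: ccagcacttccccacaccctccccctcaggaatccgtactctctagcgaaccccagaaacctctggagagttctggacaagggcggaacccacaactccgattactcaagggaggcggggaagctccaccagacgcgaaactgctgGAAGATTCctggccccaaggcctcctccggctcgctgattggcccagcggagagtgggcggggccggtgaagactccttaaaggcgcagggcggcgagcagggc
Hspa1a: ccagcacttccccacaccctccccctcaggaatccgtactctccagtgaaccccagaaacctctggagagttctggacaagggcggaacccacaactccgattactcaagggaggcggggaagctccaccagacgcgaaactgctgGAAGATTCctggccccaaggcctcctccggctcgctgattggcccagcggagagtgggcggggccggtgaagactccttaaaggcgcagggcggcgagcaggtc

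For the HSP110 genes, 30 bases around a site of Hsph1 (chr5:149636279-149636308, minus strand) and the 250 bases upstream of the RefSeq start of Hspa4l (chr3:40745363-40745612, plus strand) are shown as the members of that branch with the larger responses. In Hsph1 the capitals mark 3 alternating heat shock units, TTCNNGAA and GAANNTTC sharing their GAA, which lie 16 to 28 bases after the more downstream of its RefSeq starts. The same letters hold TGGAAA, the NFAT core, and overlap a match to the longer TonE consensus that NFAT5 recognises, at 19 to 29 bases after that start. Another TTCNNGAA of Hsph1 lies 54 to 47 bases before that start. No searched motif was found in the 300-base window of Hspa4l, from 250 bases before to 50 after its RefSeq start. The GENCODE gene begins further upstream, at chr3:40744495, so this window lies inside it and does not cover the sequence before it.
Hsph1: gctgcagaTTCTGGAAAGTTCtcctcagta
Hspa4l: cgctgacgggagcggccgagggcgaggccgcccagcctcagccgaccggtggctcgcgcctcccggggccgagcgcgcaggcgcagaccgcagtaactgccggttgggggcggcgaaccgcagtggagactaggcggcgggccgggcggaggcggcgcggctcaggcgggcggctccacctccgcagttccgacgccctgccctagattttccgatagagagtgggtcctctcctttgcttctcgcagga

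Across 32851 RefSeq promoter windows of 300 bases, searched on both strands, GAANNTTC was found in 7.86%, TTCNNGAA in 8.52%, the run of 3 heat shock units in 0.603%, TGGAAA in 21.4% and TonE in 4.96%. The table held windows for 6 of the 9 members (Hspa1a, Hspa1b, Hspa4l, Hsph1, Hspa4 and Hspa14). Counted per gene, as for the members, the shares over 27025 symbols were 9.04% for GAANNTTC, 9.60% for TTCNNGAA, 0.662% for the 3 units, 23.9% for TGGAAA and 5.74% for TonE. GAANNTTC was found in 3 of the 6 members, namely Hspa1a, Hspa1b and Hsph1, and each of the other motifs in Hsph1. These are matches of letters in a window and no measurement of binding.

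Library totals ranged from 35.3 M to 47.6 M counts. Control replicate 1 was the deepest and NaCl replicate 5 the shallowest, and both lay apart from the rest of their group. Of the markers of the collecting duct principal cell and its developmental factors, 6 of 10 had a mean of at least 1 CPM (the usual count scaled to library size, with TMM factors), among them Pax8, Pax2 and Hoxb7, and their summed level was 300.4 to 343 CPM in control and 483 to 501 CPM in NaCl libraries. These markers moved both ways: Pax2 had means of 78.8 and 185 CPM, Pax8 of 159.6 and 231 CPM and Slc14a2 of 2.31 and 5.06 CPM (control and NaCl), while Hoxb7 had 71.4 and 60.2 CPM and Gata3 8.10 and 5.97 CPM. The defining water channel gene Aqp2 was near 0, at 0.0241 CPM in control and 0.305 CPM in NaCl libraries, and of 5 epithelial markers Cdh1 was under 1 CPM in both groups while Epcam, Krt8, Krt18 and Cldn4 had means from 27.3 to 217 CPM. Cldn4 had 44.0 and 77.3 CPM (control and NaCl), against 27.3 and 28.2 for Epcam, 109 and 96.5 for Krt8 and 217 and 205 for Krt18. The 4 fibroblast markers summed to 2751 to 3182 CPM in control and 2403 to 2820 CPM in NaCl libraries, mostly from Col1a1 (means of 2492 and 2148 CPM), while Pdgfrb had means of 37.5 and 61.1 CPM. The 3 proximal tubule markers in the table summed to 162 to 205 CPM in control and 155 to 177 CPM in NaCl libraries, mostly from Lrp2 (means of 185 and 162 CPM), and the 3 of the thick ascending limb and distal tubule to 2.60 to 4.15 CPM and 4.65 to 4.92 CPM. None of the 4 intercalated cell markers was in the table, and the 2 leukocyte markers in the table summed to 5.95 to 7.19 CPM in control and 14.9 to 15.3 CPM in NaCl libraries, with means of 4.05 and 13.5 CPM for Ptprc and of 2.41 and 1.69 CPM for Cd68. The part of these markers in the results was not tested.

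All 4 stress-inducible members rose with NaCl, and the 5 constitutive members moved by at most 10.3%. In edgeR's quasi-likelihood test over 14024 genes, with Benjamini-Hochberg adjusted p-values under 0.05 taken as a change, 5 of the 9 members rose, 2 fell and 2 did not pass. Over all genes tested, 16.9% rose and 17.2% fell by the same rule. Control and NaCl libraries were fully apart for 5 members (Hspa1b, Hspa4l, Hsph1, Hspa8 and Hspa9), against 33.4% of all genes. The median log2 fold change was 0.998 for the inducible and -0.11 for the constitutive members, and 0.00287 over all genes tested. In bulk libraries scaled to their totals, fewer cells expressing a gene and less of its RNA per cell cannot be told apart.

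**Figure D1:**
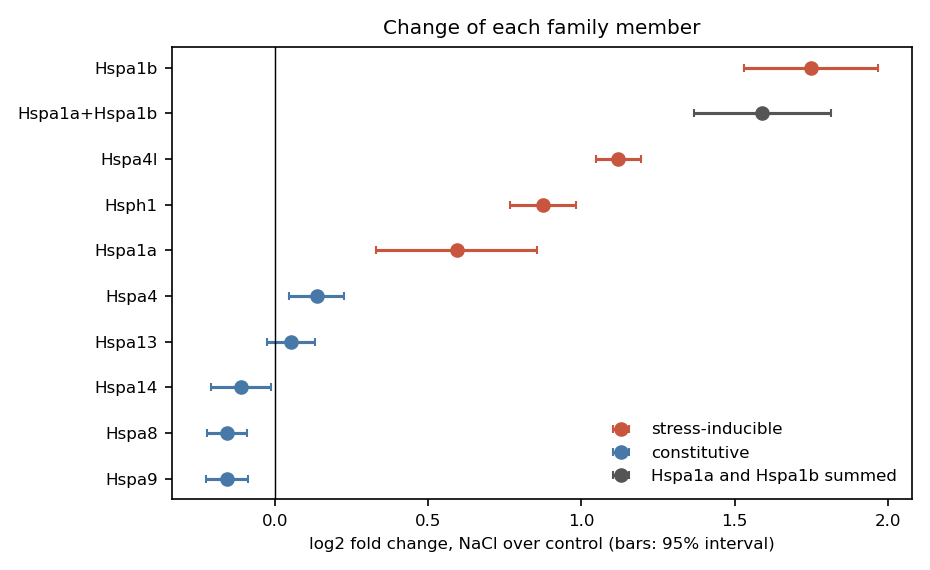
Log2 fold change of each member (NaCl over control, 4 libraries each) from the edgeR fit, with its 95% interval. The stress-inducible members lie between 0.59 and 1.75, and the constitutive members between -0.16 and 0.14.

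Hspa1b had the largest change of the family. It stood at 35.8, 30.2, 26.6 and 27.2 CPM in control replicates 1 to 4 and at 108, 107, 97.6 and 90.0 CPM in NaCl replicates 5 to 8. Every NaCl library was more than 2 times as high as every control library, and control replicate 1 was the highest of its group. The means were 29.96 ± 4.22 and 100.9 ± 8.74 CPM (SD, n = 4 each), a 3.36-fold rise (log2 fold change 1.75, SE 0.098, 95% interval 1.53 to 1.97, edgeR adjusted p = 5.73e-07).

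Hspa1a was counted at a lower level than Hspa1b and rose less. Its values were 8.51, 6.40, 6.86 and 6.24 CPM in control and 11.1, 10.9, 11.9 and 8.34 CPM in NaCl libraries. Control replicate 1 lay above NaCl replicate 8, so the groups overlapped. The log2 fold change was 0.59 (SE 0.12, 95% interval 0.33 to 0.86, edgeR adjusted p = 0.00146), a 1.51-fold rise. With the library number 1 to 8 as a linear covariate across both groups it was 1.07 (adjusted p = 1.65e-04).

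The pair shares so much sequence that reads can be exchanged between its genes. Of the 50-base words of the Hspa1a transcript, 58.8% are also in Hspa1b, and 66.3% are in some other annotated gene. The counterpart for Hspa1b is 62.3%. An antisense gene, Gm20481, that was not in the table overlaps 564 exonic bases of Hspa1a. How reads with more than 1 match and reads of either strand were counted is not given in the sources used here.

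Hspa1b took 79.5 to 82.5% of the counts of the pair in control and 89.1 to 91.5% in NaCl libraries, and these ranges did not overlap. The exact binomial 95% intervals, which cover counting error only, spanned 77.3 to 84.4% in control and 88.2 to 92.4% in NaCl libraries. The split between the copies therefore moved with the medium, beyond counting error, in the counts as deposited.

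Summed before the fit, the pair gave 44.3, 36.6, 33.5 and 33.4 CPM in control and 119.6, 118, 109.6 and 98.4 CPM in NaCl libraries. The groups were well apart, and the lowest NaCl library was more than 2 times the highest control. The sum rose 3.01-fold (log2 fold change 1.59, SE 0.099, 95% interval 1.37 to 1.81, edgeR adjusted p = 1.87e-06). Between replicates the sum varied by 13.9% (coefficient of variation) in control and 8.81% in NaCl libraries, where counting error alone gives 2.49% and 1.49%.

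**Figure D2:**
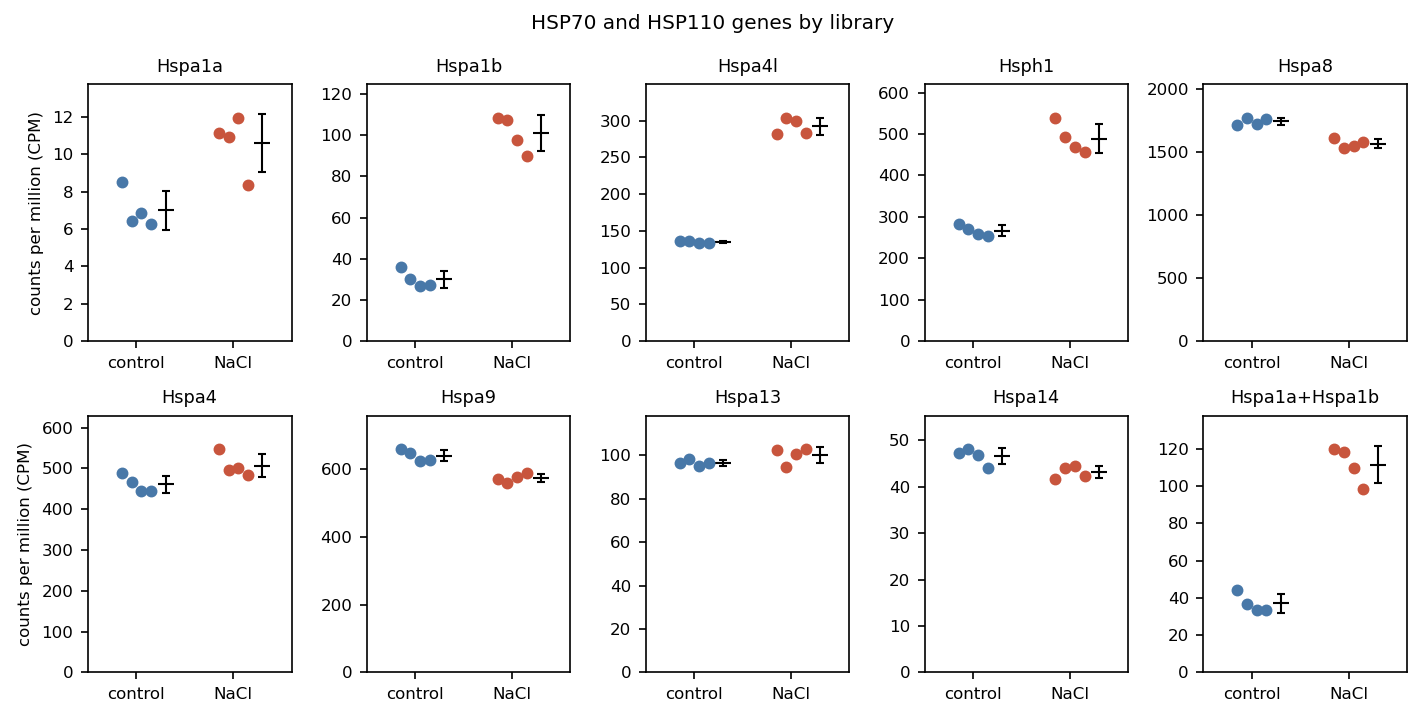
CPM of each member and of Hspa1a plus Hspa1b in each library (points, replicates 1 to 4 and 5 to 8 from left to right), with mean and SD beside them. The groups are apart for Hspa1b, Hspa4l, Hsph1, the sum, Hspa8 and Hspa9, and overlap for Hspa1a, Hspa4, Hspa13 and Hspa14.

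The HSP110 branch holds Hspa4l, Hsph1 and Hspa4, whose products act as nucleotide exchange factors for HSP70 and hold unfolded protein in solution. Hspa4l (ENSMUSG00000025757, chr3:40744495-40796103), also known as osmotic stress protein 94, had 135, 136, 133 and 133 CPM in control and 282, 304, 300.1 and 283 CPM in NaCl libraries. The control libraries lay within a few CPM of each other, a coefficient of variation of 1.25% where counting error alone gives 1.31%. The rise was 2.17-fold (log2 fold change 1.12, SE 0.035, 95% interval 1.05 to 1.19, edgeR adjusted p = 5.58e-13). A rise of at least 2-fold that passed the test was found for Hspa1b and Hspa4l among the members, and for 2.04% of all genes.

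Hsph1 (ENSMUSG00000029657, chr5:149614287-149636376), which encodes HSP105, had 283, 271, 259 and 253 CPM in control and 539, 492, 469 and 457 CPM in NaCl libraries. All NaCl libraries were above all controls, with replicate 5 the highest. The log2 fold change was 0.88 (SE 0.050, 95% interval 0.77 to 0.98, edgeR adjusted p = 6.51e-09), a 1.83-fold rise.

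Hspa4 (chr11:53259814-53300457), the constitutive HSP110 gene also called Apg-2, had 489, 466, 444 and 444 CPM in control and 546, 495, 502 and 483 CPM in NaCl libraries. The groups overlapped, since control replicate 1 lay above NaCl replicate 8. It rose by 9.91% (log2 fold change 0.14, SE 0.042, 95% interval 0.047 to 0.23, edgeR adjusted p = 0.0194). The call was lost without control replicate 3 (adjusted p = 0.0725), control replicate 4 (0.0554) or NaCl replicate 5 (0.0725), and with the library number as a linear covariate the log2 fold change was 0.34 (adjusted p = 8.59e-06).

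The inducible and constitutive HSP110 genes were set against each other within each library. Hspa4l CPM over Hspa4 CPM was 0.277, 0.292, 0.300 and 0.299 in control and 0.515, 0.613, 0.598 and 0.586 in NaCl libraries. Hsph1 over Hspa4 was 0.578, 0.582, 0.583 and 0.570 in control, where it hardly varied, and 0.986, 0.993, 0.935 and 0.945 in NaCl libraries. The ratios rose 1.98-fold and 1.67-fold, a difference of log2 ratios of 0.98 and 0.74. In cytosolic HSP70, the ratio of summed Hspa1a and Hspa1b to Hspa8 was 0.0190 to 0.0258 in control and 0.0623 to 0.0773 in NaCl libraries, and rose 3.37-fold, or 1.75 in log2.

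No control library overlapped a NaCl library for any of these 3 ratios. Each gave p = 0.0286 in an exact two-sided permutation test over libraries, adjusted p = 0.0286 over the 3, which is the smallest value that 4 against 4 libraries allow. These ratios do not depend on the scaling of libraries. As ratios of CPM that ignore transcript length, they measure the change between groups and not the relative level of the genes.

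**Figure D3:**
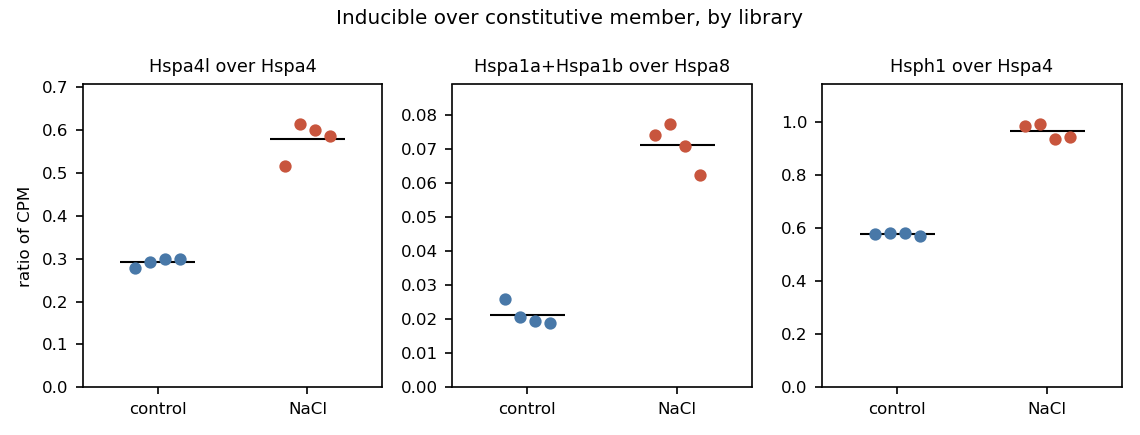
CPM of an inducible member divided by CPM of its constitutive relative in each library, with the group mean as a line. All NaCl libraries lie above all control libraries in each panel.

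Hspa8 (chr9:40800984-40810087) encodes the constitutive cytosolic HSC70, which folds new proteins, strips clathrin from vesicles and serves chaperone-mediated autophagy. It had 1719.6, 1774, 1727 and 1765 CPM in control and 1615, 1532, 1549 and 1579 CPM in NaCl libraries. All NaCl libraries were lower, by a small margin. It fell by 10.2% (log2 fold change -0.15, SE 0.031, 95% interval -0.22 to -0.090, edgeR adjusted p = 9.18e-04). Of its 50-base words, 74.8% occur in other annotated genes, none of which was in the table, so its counts are uncertain.

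Hspa9, on chromosome 18 (34937414 to 34954357, minus strand), encodes mortalin, the HSP70 of the mitochondrial matrix that pulls in imported proteins. It had 657, 648, 623 and 626 CPM in control and 570.3, 557, 577 and 588 CPM in NaCl libraries, with all NaCl libraries lower. The fall was 10.3% (log2 fold change -0.16, SE 0.032, 95% interval -0.22 to -0.088, edgeR adjusted p = 0.00126). With the library number as a linear covariate the adjusted p was 0.0584 and the log2 fold change -0.14. With that number centred in each group the call was kept (edgeR adjusted p = 8.08e-06).

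The remaining constitutive genes did not pass the test. Hspa13 (chr16:75745431-75767104), a microsome-associated HSP70-like ATPase, had 94.9 to 98.2 CPM in control and 94.8 to 103 CPM in NaCl libraries (log2 fold change 0.05, 95% interval -0.024 to 0.13, edgeR adjusted p = 0.286). Hspa14 (chr2:3488850-3512814), which works at the ribosome with the J protein Dnajc2, had 44.1 to 48.1 CPM in control and 41.7 to 44.6 CPM in NaCl libraries (log2 fold change -0.11, 95% interval -0.21 to -0.011, adjusted p = 0.0792). The groups overlapped for both genes. Hspa14 passed without control replicate 4 (adjusted p = 0.0409) and when a covariate held the library number, centred in each group (0.0467). It shares 15.6% of its 50-base words with the overlapping gene Gm45902, whose log2 fold change was 0.30 (adjusted p = 0.0395).

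Levels of different genes were compared as CPM per kilobase of annotated exon. In control libraries the order was Hspa8 (406 ± 6.27), Hspa9 (148 ± 3.84), Hspa4 (83.4 ± 3.90), Hsph1 (36.7 ± 1.81), Hspa13 (14.1 ± 0.196), Hspa14 (11.5 ± 0.418), Hspa4l (11.4 ± 0.143), Hspa1b (10.7 ± 1.51) and Hspa1a (2.36 ± 0.350; SD, n = 4 each). Hspa14 overlapped Hspa4l and Hspa4l overlapped Hspa1b over the libraries, and the other neighbours did not overlap. With NaCl the upper 4 kept their places, at 365, 133, 91.6 and 67.3 CPM per kilobase. Hspa1b at 36.0 ± 3.12 and Hspa4l at 24.8 ± 0.968 then stood above Hspa13 (14.7 ± 0.541) and Hspa14 (10.6 ± 0.328), with no overlap between neighbours, and Hspa1a stayed lowest at 3.57 ± 0.527.

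**Figure D4:**
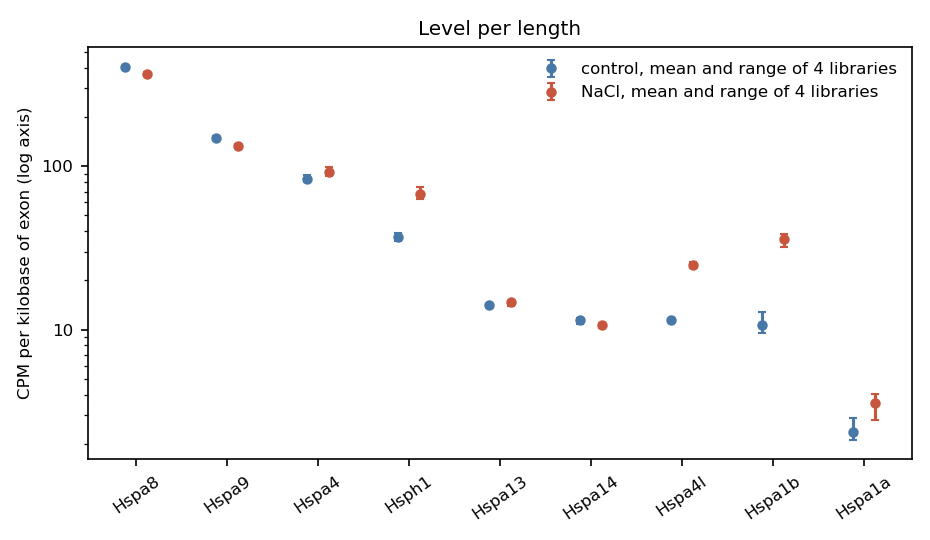
CPM per kilobase of exon for each member on a log axis (mean of 4 libraries, bars from the lowest to the highest), in the order of the control libraries. Hspa1b and Hspa4l pass Hspa13 and Hspa14 with NaCl, while Hspa8 stays highest at 406 and 365 CPM per kilobase.

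Summed per kilobase over the 9 genes, the family stood at 724 ± 11.5 in control and 746 ± 17.6 CPM per kilobase in NaCl libraries (SD, n = 4 each). The 4 inducible genes took 8.05 to 9.02% of that sum in control and 16.5 to 18.4% in NaCl libraries. Hspa8 alone took 54.6 to 57.1% and 48.5 to 49.7%. Thus, in the counts as deposited, the constitutive genes still made up most of the family's transcripts with NaCl. Hspa1a, Hspa1b and Hspa8 share 66.3%, 62.3% and 74.8% of their 50-base words with other genes. How such reads were counted is not given, so the levels and shares of these genes are uncertain.

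The partners of HSP70 were read from lists of 52 other genes, of which 51 were tested. In these, 9 genes rose, 13 fell and 29 did not pass, with a median log2 fold change of -0.05. By the same rule 34.1% of all genes changed in either direction.

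Among 6 other genes of the HSP70 and HSP110 family, 1 rose, 2 fell and 3 did not pass. Hspa2, an HSP70 gene best known from the testis, rose from 18.4 ± 0.925 to 23.5 ± 0.929 CPM (log2 fold change 0.35, edgeR adjusted p = 3.95e-04). The call was lost with the library number as a linear covariate (0.28) and kept with it centred in each group (1.56e-05). Hspa5, which encodes BiP of the endoplasmic reticulum, changed by -0.34 on the log2 scale (adjusted p = 2.57e-07) and its exchange factor Hyou1 by -0.15 (0.00139). Hspa1l, which starts 547 bases from Hspa1a on the opposite strand, had 0.615 CPM in control and 0.598 CPM in NaCl libraries (adjusted p = 0.957).

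Of 17 J-domain co-chaperones, 2 rose, 2 fell and 13 did not pass, with a median log2 fold change of -0.05. Dnajb1, the main HSF1-induced partner of cytosolic HSP70, was not higher, at 111 CPM in control and 106 CPM in NaCl libraries (log2 fold change -0.07, 95% interval -0.16 to 0.0092, edgeR adjusted p = 0.162), and is named after its value was seen. Dnajb5 rose (log2 fold change 0.32, adjusted p = 0.0123). Dnajc19, of the mitochondrial import motor, fell (-0.27, 0.0179), as did Dnajc2, the ribosome partner of Hspa14 (-0.14, 0.0192). None of these 3 calls held with the library number as a linear covariate, where the log2 fold change was 0.27 for Dnajb5 (adjusted p = 0.302), -0.00098 for Dnajc19 (0.997) and 0.0034 for Dnajc2 (0.983). All 3 held with that number centred in each group (edgeR adjusted p = 0.00251, 0.00303 and 0.00200 in the same order). The Dnajc19 call was also lost without control replicate 2 or 3 or NaCl replicate 7 (adjusted p = 0.051, 0.0501 and 0.0635), and that of Dnajc2 without control replicate 2 or NaCl replicate 8 (0.0672 and 0.0583).

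Among 9 nucleotide exchange factors outside the HSP110 branch, 3 rose, none fell and 6 did not pass. Bag3, which couples HSP70 to selective autophagy, rose from 55.8 ± 3.33 to 64.6 ± 1.76 CPM (log2 fold change 0.21, edgeR adjusted p = 0.00224). Bag6, which handles hydrophobic proteins in the cytosol, rose by 0.15 on the log2 scale (adjusted p = 0.00132), and not with the linear covariate (0.176). The mitochondrial exchange factor Grpel2 rose by 0.16 on the log2 scale (adjusted p = 0.0426), a call lost without control replicate 1, 2 or 3 (0.118, 0.0951 and 0.112) or NaCl replicate 5, 7 or 8 (0.0858, 0.0533 and 0.152). With the linear covariate its direction turned (-0.049, adjusted p = 0.765). With the library number centred in each group, Bag6 and Grpel2 kept their calls (edgeR adjusted p = 1.87e-05 and 0.00436).

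Of 7 adaptors that link HSP70 to HSP90 or to degradation, 1 rose, 2 fell and 4 did not pass. Stub1, the ubiquitin ligase CHIP, rose from 143 ± 2.07 to 161 ± 4.46 CPM (log2 fold change 0.17, edgeR adjusted p = 7.94e-04). St13, which slows the release of clients from HSP70, fell by 0.12 on the log2 scale (adjusted p = 0.00435, and 0.332 with the linear covariate). The HSP90 co-chaperone Ptges3 fell as much (log2 fold change -0.12, adjusted p = 0.0429), and its call was lost without control replicate 1 or 2 (0.0945 and 0.135) or NaCl replicate 6, 7 or 8 (0.127, 0.0548 and 0.108). It too turned with the linear covariate (0.060, adjusted p = 0.573). With the library number centred in each group, St13 and Ptges3 kept their calls (edgeR adjusted p = 1.18e-04 and 0.00199).

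Of 4 tested genes for heat shock factors and their binding partner, 1 passed. Hsf1 went from 59.8 ± 3.03 to 65.2 ± 2.50 CPM (log2 fold change 0.12, edgeR adjusted p = 0.0487). That call was lost without control replicate 2, 3 or 4 (0.0777, 0.165 and 0.0946) or NaCl replicate 5, 6 or 7 (0.124, 0.116 and 0.0849), and the linear covariate gave 0.29 (0.0059). The log2 fold changes of Hsf2, Hsf4 and Hsbp1 were 0.14, -0.09 and 0.05.

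The 8 genes listed as other targets of heat shock factors moved mostly against the inducible members of the family. The list is not complete, since Dnajb1, given above as HSF1-induced and not called, was placed among the J-domain genes. In that list 1 rose, 7 fell and none failed the test, with a median log2 fold change of -0.32. Over all genes tested, 16.9% rose and 17.2% fell. Cryab, which encodes the small heat shock protein alpha B-crystallin, rose from 111 ± 3.31 to 244 ± 16.7 CPM (log2 fold change 1.14, SE 0.045, edgeR adjusted p = 1.08e-11). By contrast Hspb8, the partner of Bag3, fell from 67.1 ± 8.39 to 35.9 ± 2.81 CPM (-0.90, SE 0.087, adjusted p = 1.04e-05). Hspe1, the lid of the mitochondrial chaperonin, fell from 93.6 ± 6.99 to 67.1 ± 4.25 CPM (-0.48, adjusted p = 8.47e-06). With the library number as a linear covariate the log2 fold changes were -0.49 for Hspb8 (adjusted p = 2.94e-04) and -0.29 for Hspe1 (0.0146). The other genes that fell, Hspd1, Serpinh1, Hsp90ab1, Hsp90aa1 and Hspb1, had log2 fold changes from -0.45 to -0.17.

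**Figure D5:**
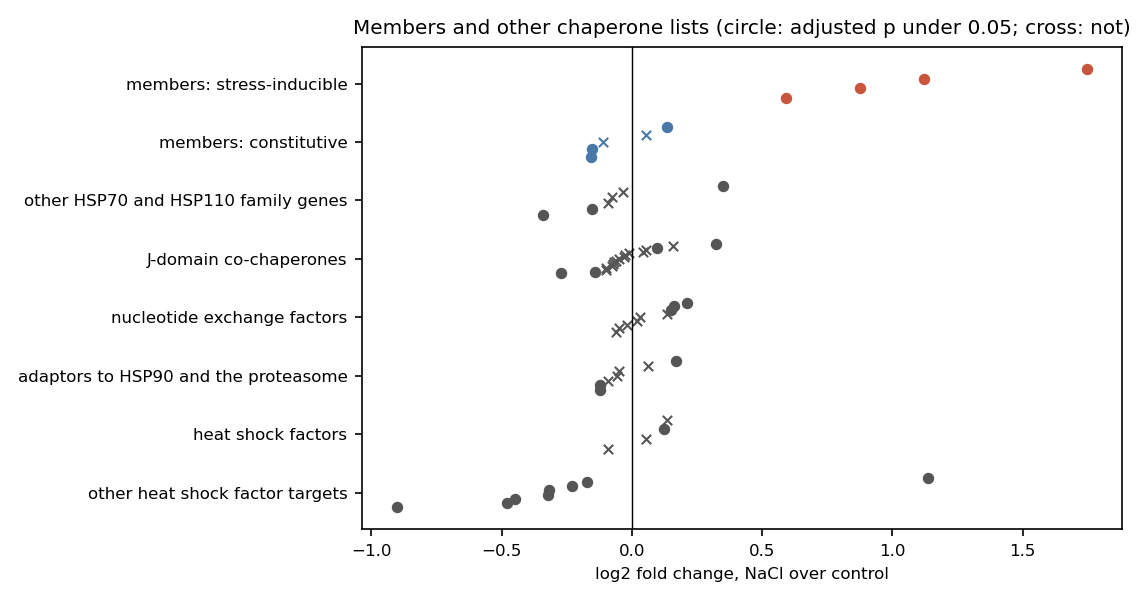
Log2 fold change of each member and of each tested gene in the other chaperone lists (1 point a gene). The inducible members lie to the right, while the genes listed as other heat shock factor targets, apart from Cryab at 1.14, lie between -0.90 and -0.17.

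Genes with a profile most like that of the leading members were sought among all tested genes, by the root mean square difference of mean-centred log2 CPM over the 8 libraries. Closest to Hspa4l were Plekha1, for a phosphoinositide-binding adaptor, at 0.0703, Me1, the cytosolic malic enzyme, at 0.0733, and Ddit4l, a relative of the mTOR inhibitor Ddit4, at 0.0824. Their log2 fold changes were 1.01, 1.14 and 1.19. Closest to the sum of Hspa1a and Hspa1b were Hspa1b itself, at 0.0814, the sterol exporter gene Abcg1, at 0.0916, and Gm19705, at 0.107. The latter 2 had log2 fold changes of 1.56 and 1.56 at low levels, 4.92 to 14.6 CPM for Abcg1 and 1.79 to 5.29 CPM for Gm19705 (control and NaCl means).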

How the data were processed

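RNA from 8 bulk libraries (4 control, 4 NaCl) was quantified by the authors, who deposited raw counts per Ensembl gene and a second table whose signal equals those counts divided by 1 factor per library (0.864 to 1.15). Trim Galore 0.6.7, STAR, DESeq2 1.34.0 and the build mm10 are named in the submitters' processing notes. The counting program, strandedness and annotation are not given in the sources used here. The lowest total of a gene in the deposited table was 19 counts.

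Counts were tested in R 4.3.3 with edgeR 4.0.16: filterByExpr at a minimum count of 10 (14024 genes tested), TMM, a robust quasi-likelihood fit on group, and Benjamini-Hochberg adjustment over all genes, called under 0.05. CPM used TMM-scaled totals of the tested genes, and log2 CPM a prior count of 2. The standard error is the log2 fold change over the root of F. On simulated counts (13862 genes, 196 changed) 86.2% of changed genes were recovered and 9.14% of 186 calls were false. That share of false calls lay above the threshold of 0.05, and recovery was not split by size of change. Differences between pairs of replicates had 5.24 to 23.0 times the variance of counting error (chi-square per degree of freedom over genes), so no library was a copy of another. Ratios were tested by exact permutation.

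Coordinates, exon lengths (exon union) and shared 50-base words come from GENCODE M21 (GRCm38, which is mm10), in which 15282 of the 15288 identifiers were found. Promoter sequences are RefSeq's (GRCm38.p6). Coding sequences were aligned with Biopython 1.88.

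Members, lists and the naming rule were chosen with earlier results of these data known. The rule named the members, up to 3 changed genes per list with the highest absolute log2 fold change among genes averaging 1 or more in log2 CPM, and the 3 genes nearest in profile to Hspa4l and to the Hspa1a and Hspa1b sum. Hsf5 was not in the table. Alternatives were other scalings, filters and thresholds, DESeq2 1.42.0, voom and trend fits in limma 3.58.1 (the latter on log2 of the authors' normalized signal plus 1), thinning, library-number covariates and leaving out each library.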

Additional observations from a re-analysis of the deposited data

Results flagged for a closer look

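Depth stood apart in a single library of each group. The total of control replicate 1, 47.6 M counts, lay above the range of 41.8 M to 42.7 M over replicates 2 to 4. That of NaCl replicate 5, 35.3 M counts, lay below the 41.4 M to 42.4 M of replicates 6 to 8. No member, ratio or share was flagged in this way, among 30 groups of 4 values examined, where chance gives about 1.5 flags. Without control replicate 1 or NaCl replicate 5 the 4 inducible members all stayed past the threshold, and Hspa4 lost its call without NaCl replicate 5.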

How the results depend on the processing

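No paired analysis was possible because the labels number the libraries 1 to 4 in control and 5 to 8 in NaCl, with no number shared. The 4 inducible members, the Hspa1a and Hspa1b sum and Hspa8 kept their direction under each alternative run for them. Each also kept its side of the threshold. The size of the change was less stable for some of them. With the library number as a linear covariate the log2 fold change rose to 2.21 for Hspa1b, 2.05 for the sum and 1.14 for Hsph1. In that fit it was 1.07 for Hspa1a, 1.14 for Hspa4l and -0.15 for Hspa8. Without 1 library at a time, the log2 fold change lay between 1.69 and 1.85 for Hspa1b, 0.53 and 0.70 for Hspa1a, 1.54 and 1.69 for the sum, 1.10 and 1.14 for Hspa4l, 0.83 and 0.90 for Hsph1, and -0.17 and -0.14 for Hspa8. Genes called over the whole table were 4071 to 4634 in those refits, against 4789 with all libraries, 6030 with the library number centred in each group as a covariate and 3382 with it as a linear covariate. Differences between replicates with adjacent numbers had 5.24 to 10.1 times the variance of counting error. For those 3 numbers apart the value was 20.9 (control) and 23.0 (NaCl), and what the numbers stand for is not stated in the labels. Without 1 library at a time, 4 to 5 members were called higher and 2 to 3 lower.

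A threshold of 0.01 left 3145 genes over the whole table and 5 list genes higher in place of 9. With the library number 1 to 8 as a linear covariate, 1 member (Hspa8) was called lower in place of 2, and the log2 fold changes of Dnajc2 (0.0034), Grpel2 (-0.049) and Ptges3 (0.060) reversed. That number largely runs with the groups. Centred in each group, it left Dnajc2 (-0.14), Grpel2 (0.16) and Ptges3 (-0.12) in their first direction. Hsf1 lost its call with upper-quartile factors, with no filter, in DESeq2 and in voom, Ptges3 with library totals alone, and Ptges3 and Grpel2 when libraries were thinned to the smallest. The cause of these differences was not tested. With the longest transcript as length, control levels in CPM per kilobase were 553 for Hspa8, 209 for Hspa9, 99.8 for Hspa4, 56.0 for Hsph1, 26.0 for Hspa14, 22.8 for Hspa13 and 14.2 for Hspa4l, because that length is shorter, and Hspa14 then stood above Hspa13. By that length Hspa4 and Hsph1, and Hspa14 and Hspa13, overlapped with NaCl. Hspa1a had the fewest counts of the 9 members, 264 to 493 per library.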
